A study of Mus musculus with 12 samples.

Results

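The genes described are 7 genes of the complement system in mouse hepatocytes: C3, C1ra, C1s1, C1rl, Cfd, Cfb and C2. They were chosen by name, as entries of the gene column in the H3K27ac interaction networks of young and old liver, and are 7 of the 16197 gene names listed in either network. They lie at 4 loci, because C1rl, C1ra and C1s1 are neighbours on chromosome 6 and Cfb and C2 are neighbours on chromosome 17. H3K27ac Hi-ChIP, which joins proximity ligation with immunoprecipitation of acetylated histone H3, recovers contacts between regions that carry this mark of active promoters and enhancers. Hepatocytes came from male C57BL/6 mice, either young (age 5 months) or old (age 25 months), with 6 libraries per age from 2 biological replicates in 3 batches of technical repeats. Young mice were bought from a commercial breeder and old mice came from the stock of the National Institute on Aging, so age and the source of the animals cannot be told apart. The deposited data hold 1 network per age, so no spread between animals exists, no test was made, and every difference below is a description of 2 pooled networks.

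Complement is a cascade of plasma proteins that tags and lyses microbes and clears cell debris, and the liver makes most of its circulating components. The classical pathway starts when C1q activates the serine proteases C1r and C1s, which cleave the precursors of the classical convertase. The alternative pathway is driven by factor D, which cleaves factor B, and every route meets at C3, the component whose cleavage opens the terminal steps. Several of these genes are acute phase genes, whose transcription in hepatocytes is raised by inflammatory cytokines.

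In both networks every node is a bin of 5 kb and belongs to exactly 1 clique, the authors' word for a set of nodes whose size is given as a node count. The young network held 56928 nodes in 5401 cliques with a mean of 10.5 nodes, and the old network held 40304 nodes in 5973 cliques with a mean of 6.75. The number of contacts behind each network is unknown. Cells were pooled, so fewer cells with a contact and a weaker contact in each cell cannot be told apart. Hepatocyte markers were listed for 9 of 10 genes in young and 8 of 10 in old. Markers of 5 other liver and blood cell types were listed for 5 of 29 genes in young and 2 of 29 in old, and none of the 7 Kupffer cell markers was listed at either age.

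Sequence just before the gene start is shown because H3K27ac marks active promoters and the start of each of these genes lay in a node at both ages. RefSeq promoter entries were matched for 5 of the 7 members on GRCm38.p6, and the 250 bases before the start are printed 5′ to 3′ in the direction of transcription. They lie at chr17:57228137-57228386 on the minus strand (C3), chr6:124492863-124493112 on the plus strand (C1rl), chr6:124512371-124512620 on the plus strand (C1ra), chr6:124542360-124542609 on the minus strand (C1s1) and chr10:79890603-79890852 on the plus strand (Cfd). Cfb and C2 are named only. The start in the C1s1 entry is 124542359, so its stretch overlaps the gene span used below, which ends at 124542392. Capitals mark matches to the C/EBP motif TTGCNNAA on either strand, the motif of a factor family that drives acute phase genes.
C3: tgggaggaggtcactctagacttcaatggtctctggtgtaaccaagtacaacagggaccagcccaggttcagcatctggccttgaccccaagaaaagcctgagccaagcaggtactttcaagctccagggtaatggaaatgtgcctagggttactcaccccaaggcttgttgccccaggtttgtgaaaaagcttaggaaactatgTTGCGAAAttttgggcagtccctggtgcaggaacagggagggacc
C1rl: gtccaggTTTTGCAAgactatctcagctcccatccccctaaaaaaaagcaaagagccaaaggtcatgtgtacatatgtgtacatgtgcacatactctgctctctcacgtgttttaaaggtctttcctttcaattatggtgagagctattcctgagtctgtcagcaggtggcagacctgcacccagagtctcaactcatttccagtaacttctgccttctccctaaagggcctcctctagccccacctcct
C1ra: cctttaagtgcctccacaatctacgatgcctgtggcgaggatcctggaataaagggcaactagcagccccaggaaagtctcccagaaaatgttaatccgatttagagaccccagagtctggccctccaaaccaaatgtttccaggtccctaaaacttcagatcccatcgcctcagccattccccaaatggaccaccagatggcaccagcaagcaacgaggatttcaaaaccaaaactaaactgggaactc
C1s1: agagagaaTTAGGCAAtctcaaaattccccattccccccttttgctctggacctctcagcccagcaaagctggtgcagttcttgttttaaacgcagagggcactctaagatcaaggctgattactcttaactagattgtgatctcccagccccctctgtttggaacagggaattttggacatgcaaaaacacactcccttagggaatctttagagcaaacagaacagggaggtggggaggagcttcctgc
Cfd: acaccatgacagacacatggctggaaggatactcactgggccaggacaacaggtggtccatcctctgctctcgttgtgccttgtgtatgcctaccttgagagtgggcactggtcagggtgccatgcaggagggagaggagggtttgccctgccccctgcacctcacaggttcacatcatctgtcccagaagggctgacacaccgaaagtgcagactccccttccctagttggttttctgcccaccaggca

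The C/EBP motif had 1 match in the C3 stretch, 38 to 45 bases before the start. It had 1 match 236 to 243 bases before the C1rl start and 1 match 235 to 242 bases before the C1s1 start. No other searched motif matched in the 5 stretches, and none of the 6 matched in those of C1ra and Cfd. The others were TTCNNNGAA for STAT factors, TGANTCA for AP-1, TATAAA for the TATA box, and the NF-kappaB and interferon response motifs. Over the same window of 27025 RefSeq promoters, both strands searched, the shares with a match were 9.55% for C/EBP, 7.18% for STAT, 4% for NF-kappaB, 3.04% for interferon response, 6.87% for AP-1 and 13% for the TATA box. A match of letters is a description and not a binding site. The 5 stretches had a GC content of 47.6% to 57.6%, against a median of 52% over all promoters.

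All 7 members were listed at both ages, which follows from their choice as names in both networks and is no result. Of 9595 protein-coding genes listed at either age, 6254 were listed at both. Each member was in exactly 1 clique per age, and genes of the same locus were always listed in the same clique. C3, the central component, had a clique of 30 nodes at the young age and of 116 at the old age. The classical pathway protease genes C1ra and C1s1, with C1rl, a C1r-like protease gene, shared a clique that counted 119 nodes at the young age and 60 at the old. Cfd, which encodes factor D (adipsin), had 185 clique nodes at the young age and 160 at the old. Cfb, the factor B gene, and C2, its counterpart in the classical and lectin convertase, shared a clique with 69 young and 46 old nodes. The order of clique sizes was thus Cfd, the C1 locus, Cfb and C2, and C3 in young, and Cfd, C3, the C1 locus, and Cfb and C2 in old. No spread is available to say which neighbours in that order differ.

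C3 stood out by its gain and the other members by smaller losses. The old C3 clique was 3.87-fold larger than the young one, with a log2((old + 1)/(young + 1)) of 1.92, and C3 was the only member past a fold of 2. This log2 value was -0.98 for the C1 locus, where the young clique was 1.98 times the size of the old. It was -0.57 for Cfb and C2 and -0.21 for Cfd, whose young cliques were 1.5 and 1.16 times the size of the old. So 6 of 7 members, at 3 of 4 loci, had the smaller clique in old, although after scaling each size to the mean clique of its age only the 3 genes of the C1 locus did. Of 6254 protein-coding genes listed at both ages, 81.5% had the smaller clique in old and 13% the larger. A fold of at least 2 was reached by 38.4% downward and 4.29% upward, and by 0 and 1 of the 7 members. The members' median log2 value of -0.57 compares with -0.63 over all 6254 genes. A gain of sizes at least as large as that of C3 was seen in 1.93% of them, including genes that share its cliques. Shares over the 6254 genes count every gene, so genes listed in the same clique repeat its size.

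Relative to their network, the cliques of 4 members were larger in old than in young. On that scale, the C3 clique was 2.85 times the mean in young and 17.2 times the mean in old. The Cfd clique went from 17.6 to 23.7 times the mean and that of Cfb and C2 from 6.55 to 6.82, so both differed in sign from the change in the number of nodes. The C1 clique was at 11.3 and 8.89 times the mean. On this scale 49% of the 6254 genes had the larger value in old and 51% the smaller. By rank of size, the C3 clique moved from place 521 among young cliques to place 3 among old ones, the Cfd clique from 2 to 1, the C1 clique from 9 to 29, and that of Cfb and C2 from 73 to 72.

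**Figure D1:**
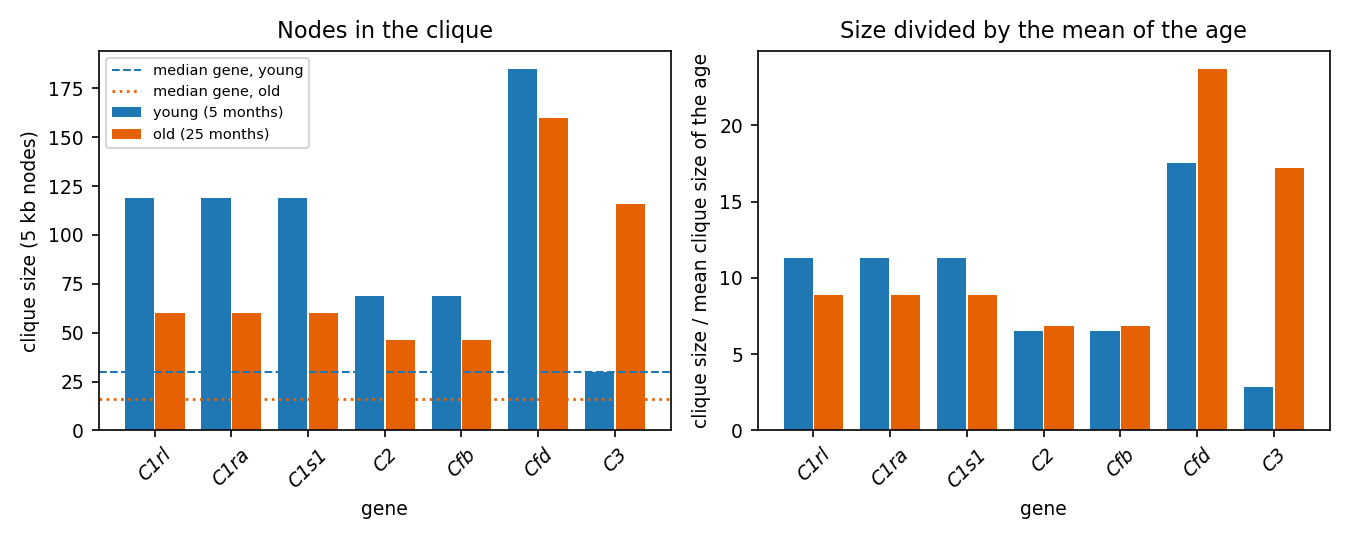
Clique size of each member in the young (blue) and old (orange) network, as the number of 5 kb nodes with the median over 6254 genes as dashed and dotted lines (left) and as a multiple of the mean clique size of that network (right). Bars are single values of 1 pooled network per age, and C3, at 30 and 116 nodes, is the only gene with the taller old bar on the left.

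At the genes themselves the acetylated nodes were nearly the same at both ages. C3 spans 24170 bp (chromosome 17, 57203967 to 57228136), and all 6 of its bins were nodes in young and in old. C2 (chromosome 17, 34862602 to 34882100) likewise had 5 of 5 bins and Cfb (34856374 to 34862514) 2 of 2. Such complete cover at both ages was found in 22.5% of the 6254 genes, and in 6.76% of the 3892 that span at least 4 bins, as C3 and C2 do. C1rl (chromosome 6, 124493113 to 124510643) had 4 of 5 bins in young and 5 of 5 in old, and this was the only gene bin of the members that differed between the ages. C1ra (124512621 to 124523440) had 1 of 3 bins and C1s1 (124530344 to 124542392) 2 of 3 at both ages, values that are uncertain because both genes have near-identical copies close by. Cfd (chromosome 10, 79890853 to 79892655) lies in a single bin, a node at both ages. Counted once each, 19 of the 23 gene bins were nodes in young and 20 in old, all in the clique that lists the gene. For the 5 members with a promoter entry, the bin that holds the start was a node at both ages, as it was for 91.4% of 5016 protein-coding genes listed at both ages.

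Most nodes of the old C3 clique had belonged to other cliques in young. In young it ran from 56985001 to 57335000 on chromosome 17, a span of 350 kb, and in old from 55955001 to 57340000, a span of 1385 kb. Of its 30 young nodes, 24 were nodes in old (80%, Wilson 95% interval 62.7 to 90.5, counting error only), 23 of them in the old C3 clique. Those 23 were only 19.8% of the 116 old nodes. A further 50 old nodes came from a young clique of 67 nodes (56045001 to 56765000), 16 from a young clique of 29 nodes (55700001 to 56100000), 2 from a clique of 3, and 25 were in no young clique. The old C3 clique therefore shared more with the young clique of 67 nodes (Jaccard index, shared nodes over nodes in either, 0.38) than with the young clique that listed C3 (0.19). As a background for all 4 loci, the median share of young nodes present in old was 66.7% over 6254 genes (quartiles 55.6% and 76.25%).

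The young cliques of 29 and 67 nodes overlapped in position, as did those of 30 and 3 nodes. Between the young cliques of 67 and 30 nodes lies a gap of 220 kb (56765001 to 56985000) in which the old C3 clique had no node, while 9 old nodes there belonged to other cliques. Of the 25 nodes absent from young, 19 lay in the stretch of the young clique of 67 nodes, 4 in that of the young C3 clique and 2 in that of the clique of 29. The reach of the C3 clique below the gene rose from 219 kb in young to 1249 kb in old, and its reach above the gene was 107 and 112 kb. Nodes of 4 or more young cliques were found in the old clique of 1.69% of the 6254 genes, C3 included. That share also counts other genes of the old C3 clique, which lists 37 protein-coding genes.

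**Figure D2:**
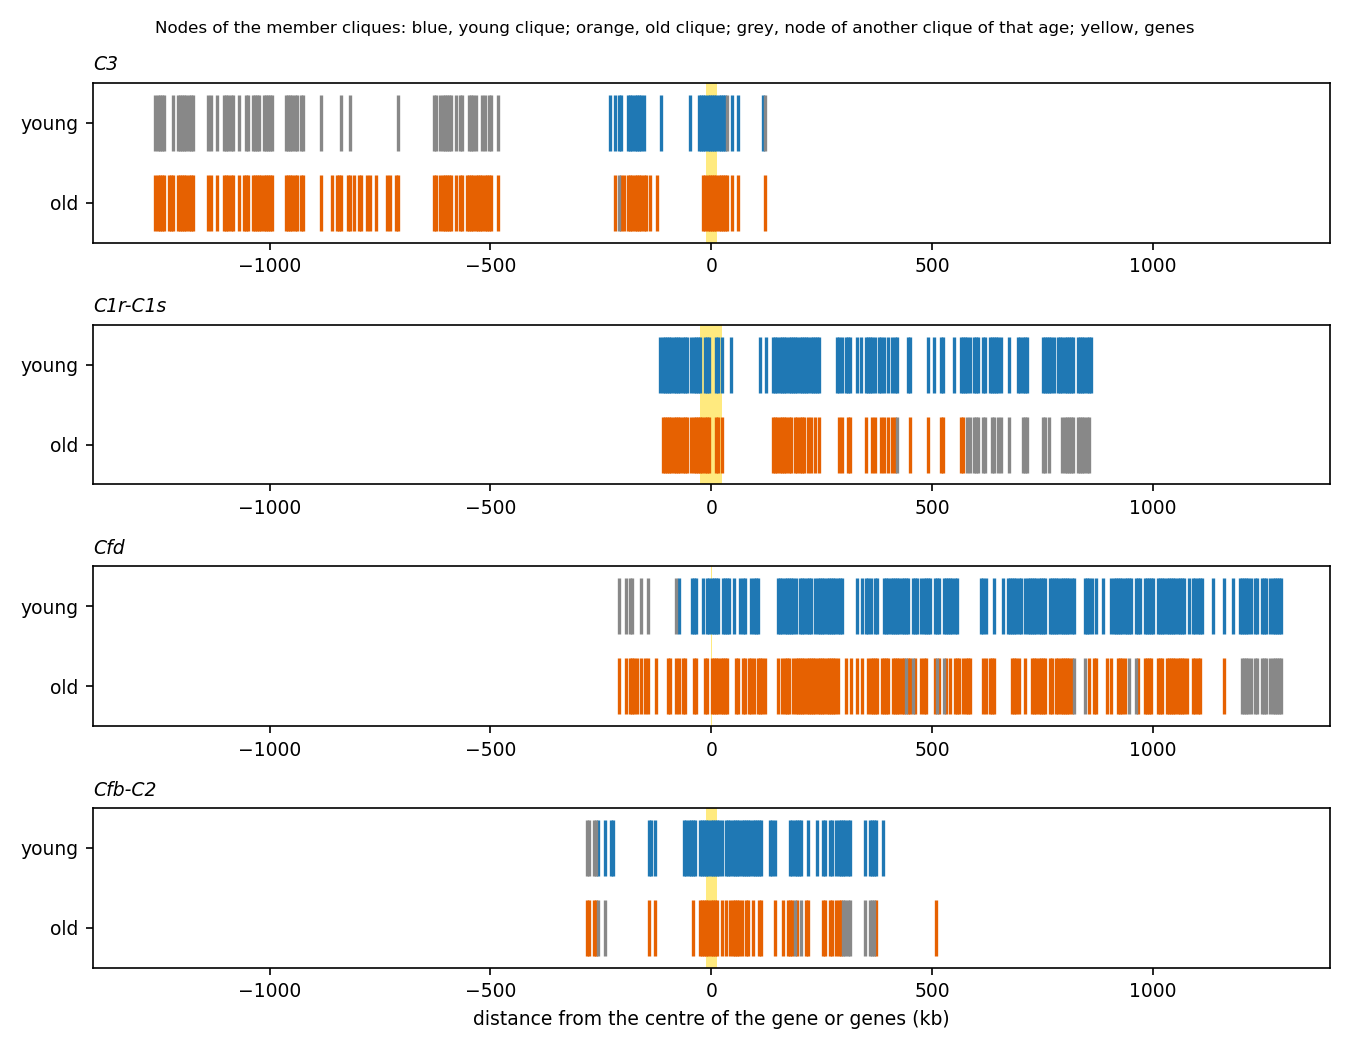
Nodes of the young and old cliques at the 4 loci against distance from the centre of the gene or genes in kb; blue and orange ticks are nodes of the clique that lists the members, grey ticks are nodes of other cliques of that age, and yellow marks the genes. At C3 the orange nodes continue far below the gene where the young nodes are grey, and at the C1 locus the far right nodes are grey in old.

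The genes listed with C3 also differed between the ages. The young clique listed 17 genes, the old clique 45, and 14 were in both, C3 included. Of the other genes of the young clique, 81.25% were still listed with C3 in old. Over 5862 genes the median of this share was 58.0% and the upper quartile 84.2%. The same share was 55.6% at the C1 locus, 67.4% at Cfd and 58.2% at Cfb and C2. The genes most like C3, listed with it in both of the 2 networks and nearest to it, were Trip10, a Cdc42 effector gene, Gpr108, Vav1, a guanine nucleotide exchange factor gene of blood cells, and Crb3, a cell polarity gene. They also included the mitochondrial carrier genes Slc25a23 and Slc25a41, the RNA-binding protein gene Khsrp and the transcription factor gene Gtf2f1. The 3 genes listed with C3 in young only were the TNF family ligand genes Tnfsf14, 9.79 kb from C3, and Tnfsf9, 96.2 kb away, and the mitochondrial protease gene Clpp. Old nodes of the C3 clique reached Tnfsf14 and Clpp, meaning the gene or the 2500 bp on either side, but no old node reached Tnfsf9. Of the 31 genes listed with C3 in old only, 26 were protein-coding. The nearest were Dennd1c at 125 kb, Ndufa11, a gene of respiratory complex I, at 480 kb, Vmac at 486 kb and Ranbp3 at 492 kb, and the last 3 were in the young clique of 67 nodes.

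The C1 locus had the opposite arrangement, with nodes of 1 young clique in 2 sizeable old ones. Its young nodes lay in 3 old cliques in all, against a median of 2 (quartiles 1 and 3) over the 6254 genes. The old C1 clique held 49.6% of them, and the median of this share was 50%. Such a spread was thus common among genes. The young clique ran from 124400001 to 125380000 on chromosome 6 (980 kb) and the old one from 124405001 to 125090000 (685 kb). Of the 119 young nodes, 90 were present in old (75.6%, 67.2 to 82.5): 59 in the old clique of C1rl, C1ra and C1s1, 30 in a separate 35-node clique and 1 in a clique of 2. The old clique held hardly any node from elsewhere, with 59 of its 60 nodes (98.3%, 91.1 to 99.7) from the young clique and the other absent from the young network. Over the 6254 genes the median share of old nodes present in young was 89.7%, and that of young nodes present in old was 66.7%. The 59 nodes ended at 125090000 and the 30 began at 125095001, so these sets met near that point. The whole 35-node clique ran from 124765001 to 125385000 and thus overlapped the old C1 clique in position. By distance from the genes, 88.5% of the 26 young nodes within 100 kb were present in old (71.0 to 96.0) and 70.3% of the 64 beyond 300 kb (58.2 to 80.1), with intervals that overlap. Cfd and the locus of Cfb and C2 had the reverse order. The share within 100 kb and beyond 300 kb was 68.2% and 77.6% at Cfd and 66.7% and 85.7% at Cfb and C2. The young C3 clique had no node beyond 300 kb, and its share was 81.25% within 100 kb and 78.6% from there to 300 kb.

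All 31 genes of the old C1 clique had been listed in the young clique, which held 55. The protein-coding genes listed with the 3 members in both networks and nearest to them were Clstn3, the peroxisomal import receptor gene Pex5, the phospholipid remodelling gene Lpcat3, Emg1, the prohibitin gene Phb2, Grcc10, the enolase gene Eno2 and Spsb2. Of the 24 genes listed in young only, 16 were protein-coding, and the nearest were Ptpn6, which encodes a phosphatase of blood cell signalling, Atn1, P3h3 and Lpar5. Old nodes of the 60-node clique still reached the spans of Ptpn6, Atn1 and Lpar5, and none lay within 2500 bp of P3h3. The old clique of 35 nodes listed the glycolytic gene Gapdh, the chromatin remodeller gene Chd4 and the cytokine receptor genes Ltbr and Tnfrsf1a, which were chosen after their values were seen and had been listed with the C1 genes in young.

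Cfd stayed in one of the largest cliques at both ages, with a shift at the edges and nodes that also differed inside the shared span. Its clique ran from 79815001 to 81185000 on chromosome 10 in young and from 79680001 to 81055000 in old, spans of 1370 and 1375 kb. Of 185 young nodes, 144 were present in old (77.8%, 71.3 to 83.2), 120 of them in the old Cfd clique and 24 in 6 other cliques, the largest with 14 nodes. Of 160 old nodes, 127 were present in young (79.4%, 72.5 to 84.9): 120 in the young Cfd clique and 7 in a young clique of 8 nodes on the lower side. The Jaccard index of the pair was 0.53, and an index of at least 0.5 was reached by 39.4% of the 6254 genes. A young clique spread over 7 or more old ones was found for 7.15% of them. The clique reached 75.9 kb below the gene in young and 211 kb in old, and 1292 and 1162 kb above it.

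The cliques of Cfd listed 87 genes in young and 69 in old, 59 of them in both. Med16, a gene of the Mediator complex, lies 2.05 kb from Cfd and was listed with it at both ages, as were Plppr3, R3hdm4, Kiss1r, the splicing regulator gene Ptbp1, Arid3a, Wdr18 and Cnn2. Elane and Prtn3, protease genes of neutrophil granules 2.64 and 7.68 kb from Cfd, were listed in young only. So were Gpx4, a glutathione peroxidase gene, and Apc2. Old nodes of the Cfd clique still lay in Prtn3, Gpx4 and Apc2. The single bin that holds Elane was a node in young and not in old, and old nodes reached only the 2500 bp on either side of it. The mitochondrial RNA polymerase gene Polrmt moved from the young clique of 8 nodes into the old Cfd clique. Palm, Tmem259 and Rnf126 were also listed with Cfd in old only, and young nodes of its clique already reached Palm and Tmem259.

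**Figure D3:**
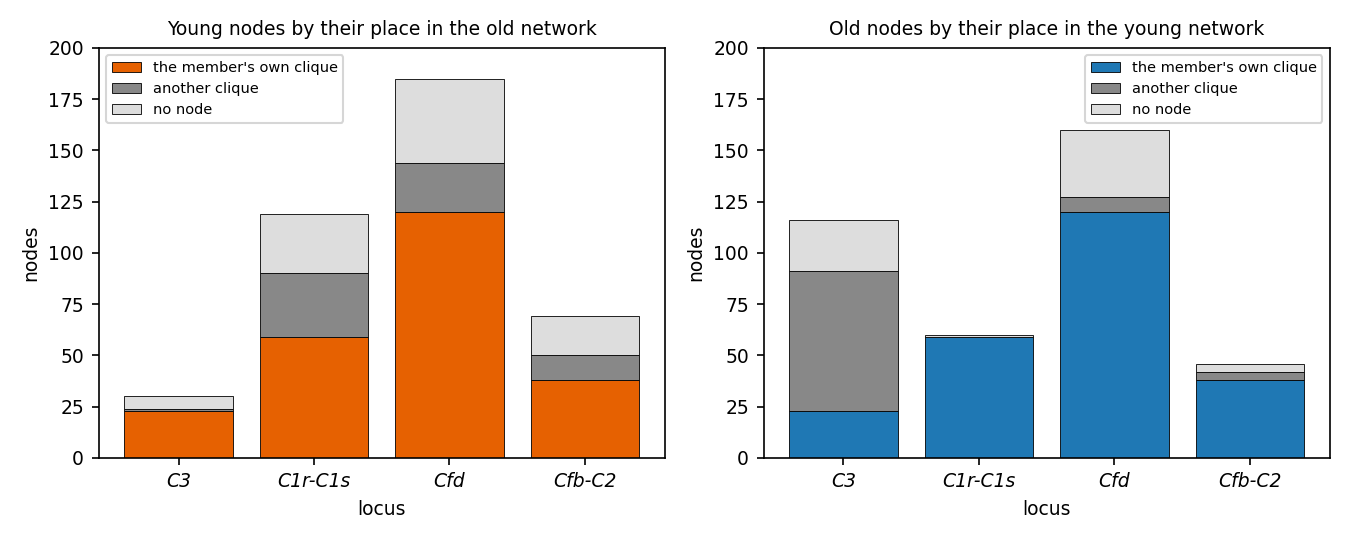
Number of nodes of each young clique by their place in the old network (left) and of each old clique by their place in the young network (right), in the clique that lists the members, in another clique or in none. In the right panel the old C3 clique is mostly grey (68 of 116 nodes from other young cliques), and the old C1 clique is almost wholly blue (59 of 60).

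Cfb and C2 lie 87 bp apart in the class III region of the major histocompatibility complex, and nodes filled less of the span of their old clique than of their young one. It ran from 34610001 to 35260000 in young (650 kb) and from 34585001 to 35380000 in old (795 kb). Nodes filled 53.1% of that span in young and 28.9% in old. The fill was also lower in old at the other loci, going from 60.7% to 43.8% at the C1 locus, from 67.5% to 58.2% at Cfd and from 42.9% to 41.9% at C3. It was not computed over all genes, so these values have no background. Of 69 young nodes, 50 were present in old (72.5%, 61.0 to 81.6): 38 in the old clique of Cfb and C2, 8 in a clique of 20 nodes and 4 in 2 small ones. Of 46 old nodes, 42 were present in young (91.3%, 79.7 to 96.6), 4 of them from a small young clique at the lower edge. The last old node, at 35375001 to 35380000, stood alone 130 kb past the one before it and was in no young clique. Without it the old span was 660 kb and its fill 34.1%. The Jaccard index of the pair was 0.49.

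The cliques of Cfb and C2 listed 56 genes in young and 41 in old, 33 of them in both. C4b, which encodes complement component C4, was among the genes listed with them in both networks and nearest to them, with Nelfe, a gene of the negative elongation factor, the RNA helicase gene Skiv2l, Zbtb12, Slc44a4, the sialidase gene Neu1, Lsm2 and Clic1. The stress-induced Hsp70 genes Hspa1a and Hspa1b, with Hspa1l and the steroid hydroxylase gene Cyp21a1, were listed in young only, and no old node lay within 2500 bp of Hspa1a or Cyp21a1. Agpat1, Rnf5 and Pbx2 moved from a young clique of 4 nodes into the old clique, and the meiotic gene Msh5 was listed in old only. The old clique of 20 nodes that took 8 of the young nodes listed the cytokine gene Tnf and the class I gene H2-D1, both chosen after their values were seen.

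**Figure D4:**
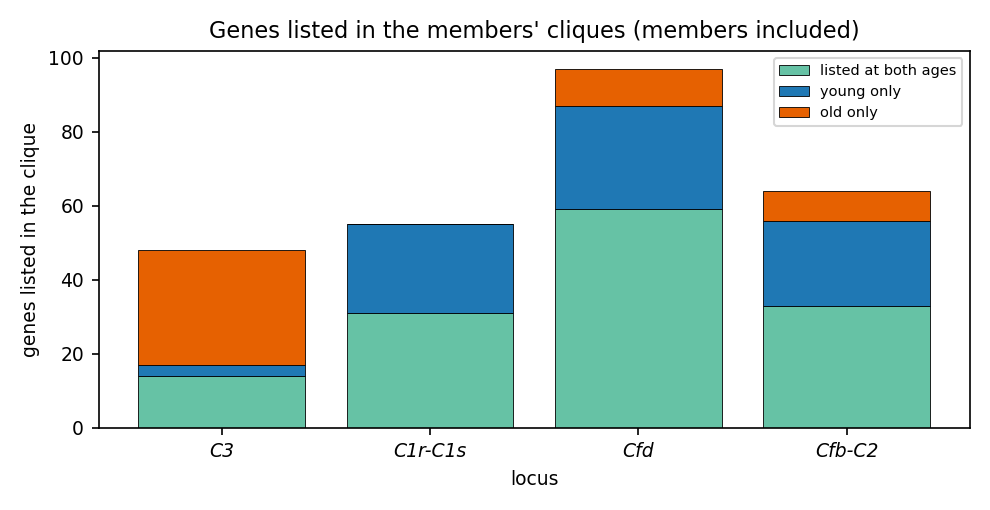
Number of genes listed in the clique of each locus at both ages, in young only and in old only, members included. C3 has the most genes listed in old only (31), and the C1 locus has none.

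Among 42 other genes of the complement system, 25 were listed in a network, 16 at both ages, 9 in young only and none in old only. The share of all protein-coding genes listed in a network was not computed, so 25 of 42 has no background. Of the 25, 36% were listed in young only, compared with 25.4% of 9595 protein-coding genes listed at either age, and 9.44% of those were listed in old only. Of the 16 listed at both ages, 12 had the smaller clique in old and 4 the larger, and after scaling to the mean clique of each age these counts were 9 and 7. Their median size was 44 nodes for young and 25.5 for old, with a median log2 value of -0.66 against -0.63 over the 6254 genes. A fold of at least 2 downward was reached by 6 of the 16 (37.5%) and upward by none. The shares over the 6254 genes were 81.5% smaller, 13% larger, 38.4% at least 2-fold smaller and 4.29% at least 2-fold larger. Neighbouring complement genes can share a clique, as C4b does with Cfb and C2, and such genes have the same value.

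The genes with larger old cliques were Hc, which encodes component C5, Masp2, a protease gene of the lectin pathway, and the inhibitor genes Cfi and Serping1, whose products are factor I and C1 inhibitor. Young and old clique sizes were 34 and 52 nodes for Hc, 18 and 26 for Masp2, 16 and 25 for Cfi, and 29 and 48 for Serping1, each short of a fold of 2. In the lectin pathway the other 3 listed genes had smaller cliques in old: the protease gene Masp1 at 43 and 9 nodes, and the mannose-binding lectin genes Mbl1 at 48 and 21 and Mbl2 at 49 and 26. Among the other terminal components, C9, the pore-forming component, had 9 young and 2 old nodes and C8g had 3 and 2. Larger cliques that did not list C8g, of 28 young and 24 old nodes, also reached it. C8b and C6 had young cliques of 50 and 4 nodes, and neither gene was listed in old, while C7 and C8a were listed at neither age. An old clique of 14 nodes reached C8b, and no old node lay within 2500 bp of C6. Cliques of 50 young and 14 old nodes reached C8a without listing it.

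Regulators of complement were listed in 11 of 12 cases, 8 at both ages and 3 in young only, and receptors in 3 of 7. These counts also lack a share over all genes. The fluid-phase regulator genes C4bp and Clu stayed in large cliques, with 100 young and 64 old nodes for C4bp and 65 and 55 for Clu. The carboxypeptidase N genes, which inactivate anaphylatoxins, were at 76 and 19 nodes for Cpn1 and 74 and 46 for Cpn2. Cd46 was at 17 and 2 nodes and Cd59b, an inhibitor of the lytic pore, at 45 and 6. An old clique of 9 nodes that did not list Cd46 also reached it. Vtn, Cd59a and Cr1l had 8, 45 and 17 young clique nodes and no old listing. Old cliques of 7 and 2 nodes still reached Vtn and Cr1l, and no old node lay within 2500 bp of Cd59a. The receptor genes C3ar1, Itgam and Cr2, which are known from blood cells, were listed in young only, in cliques of 16, 18 and 2 nodes. A young clique of 17 nodes that did not list Cr2 also reached it. The receptor genes C5ar1, C5ar2, Vsig4 and Itgax were listed at neither age. An old clique of 3 nodes reached C5ar2 without listing it, and no young node lay within 2500 bp of that gene. C1qa, C1qb and C1qc, which macrophages express, were listed at neither age. No old node lay within 2500 bp of 5 of the 9 complement genes with a young listing alone, compared with 50.8% of 2435 protein-coding genes with such a listing.

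**Figure D5:**
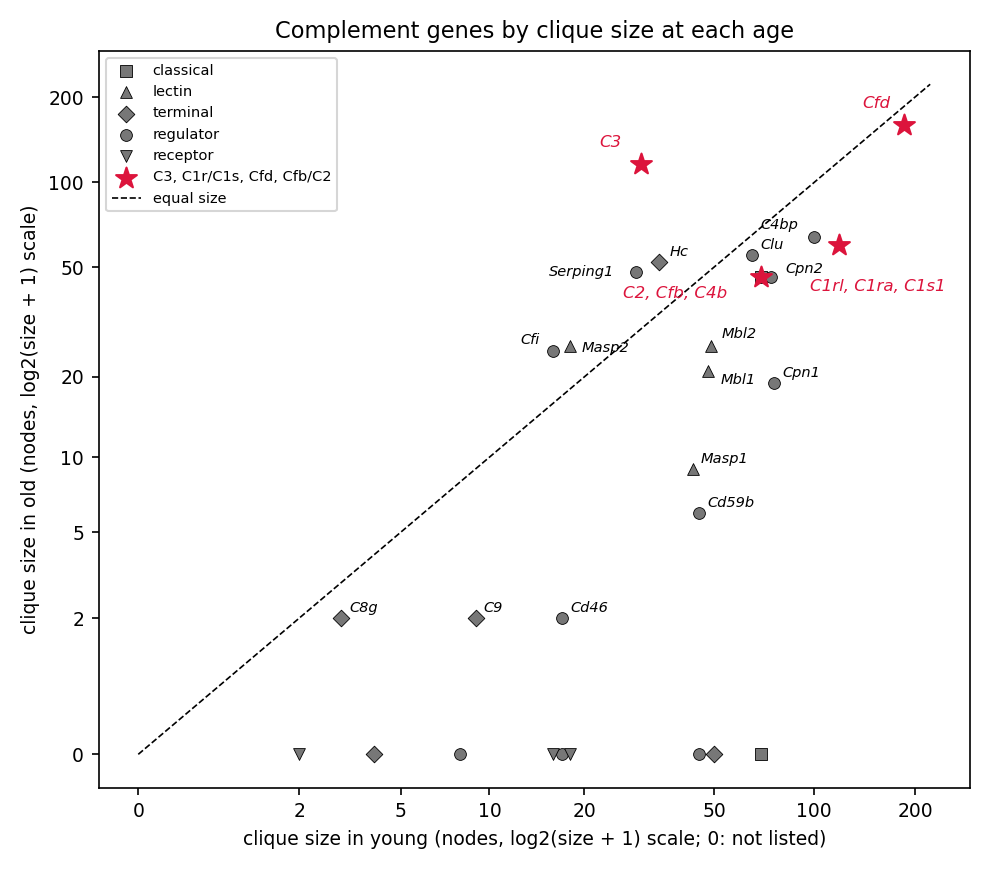
Clique size in young (x axis) and old (y axis) of the 7 members (red stars, 1 per locus) and of the other listed complement genes (grey, shape by role), on a log2(size + 1) scale with the dashed line at equal size; C4b shares the point of Cfb and C2. C3, Hc, Masp2, Cfi and Serping1 lie above the line, and the 9 genes at 0 on the y axis were listed in young only.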

How the data were processed

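Hepatocytes were isolated by collagenase perfusion and slow centrifugation, per the labels' protocols. Bowtie2, HiC-Pro and the builds mm10 and GRCm38 are named in the submitters' processing notes. How loops were called, cliques formed and the 12 libraries pooled is not stated in these sources. The authors deposited, per the file headers, a table of nodes with positions and a table of cliques with node numbers and gene names for each age.

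Genes were assigned by the deposited gene column, nodes were matched by position (minimum overlap 1 bp), and a fold of at least 2 in clique size was counted as a change. Of the 16197 gene names, those matching a protein-coding RefSeq gene of GRCm38.p6 by symbol or unique synonym gave 9595 genes. Gene coordinates and promoters are from RefSeq. Intervals are Wilson 95% intervals. The functions were tested on simulated data. Python 3.11.15, pandas 2.3.3 and statsmodels 0.14.6 were used. Members, lists, motifs and alternatives were chosen with earlier results of these data known. Named genes are the members, a list of complement genes, up to 8 protein-coding genes nearest to the members among those listed with them at both ages, and up to 4 among those listed at 1 age. Other genes are said to have been chosen afterwards. Some genes of the complement list are not reported here and were left out of its counts.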

Additional observations from a re-analysis of the deposited data

How the results depend on the processing

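No paired analysis was possible because each age is 1 pooled network, and leaving out a replicate could not be done for the same reason. Assigning cliques by gene span left the direction of all 4 loci as reported. A pseudocount of 5 cannot change a direction. Summing over cliques cannot change a value here, because each member was listed in 1 clique per age. After scaling each size to the mean clique of its age, the log2 value was 2.59 for C3, -0.34 for the C1 locus, 0.43 for Cfd and 0.058 for Cfb and C2, so the last 2 reversed. With genomic span in kb it was -0.52 for the C1 locus, 0.0053 for Cfd and 0.29 for Cfb and C2, the last 2 again reversed. Without the lone last node of the old clique of Cfb and C2, an alternative added after seeing the data, the last value was 0.022. As a share of all nodes of the age, also added then, the log2 value was -0.49 for the C1 locus and 0.29 for Cfd, which reversed. On this scale Cfb and C2 did not reverse, with a value of -0.087. Members with a smaller old clique numbered 3 by either the mean of the age or the genomic span and 0 at a fold of at least 2, and members with a larger one numbered 4 by either scale. The mean and the node share both depend on the number of nodes in each network. The mean also depends on the number of cliques, 5401 in young and 5973 in old. The cause of the reversals, those by span included, was not tested. Counting the next bin as shared moved the share of old nodes present in young to 90.5% for C3, 100% for the C1 locus and 90.6% for Cfd. It moved the share of young nodes present in old to 91.6% for the C1 locus, 96.8% for Cfd and 89.9% for Cfb and C2. Requiring cliques of at least 3 nodes left all shares within their intervals. The reads behind each network are unknown, so a node missing at 1 age may have been below detection.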

Other observations

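Near copies of C1ra, C1s1 and C4b differed from them in cover. C1rb (chromosome 6, 124570430 to 124581044) and C1s2 (124624625 to 124636085), paralogues of C1ra and C1s1 that are known from male reproductive tissue in mouse, lie inside the span of the C1 clique at both ages but were listed in neither network. None of the 3 bins of C1rb was a node at either age, and of the 4 bins of C1s2 there was 1 node in young and none in old. Between C1s1 and Lpcat3, the nearest protein-coding gene on that side listed at both ages, 4 of 23 bins were nodes in young and 1 in old. C4a (chromosome 17, 34809092 to 34823460), a near copy of C4b, had nodes in 4 of 4 bins in young and in none in old, and was listed in young only. C4b (34728139 to 34743902) had nodes in 3 of 4 bins in young and 2 in old. Reads from near-identical copies can be split or dropped by the authors' mapping, so the values of C1ra, C1s1, C1rb, C1s2, C4a and C4b are uncertain.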
